A study of Homo sapiens with 6 samples.

Results

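The mRNA of 10 chemokines (CXCL1, CXCL2, CXCL3, CXCL8, CXCL9, CXCL10, CXCL11, CXCL16, CCL2 and CCL5) was followed in HT1080 cells, an established human fibrosarcoma line, with and without IFNβ. The members were taken by symbol from a table of 62710 genes, and all 10 were found in it. The 3 untreated libraries and the 3 libraries of cells given human IFNβ at 20 ng/mL for 24 h were made from the same line, and the labels give the cytokine as the one difference between them. The RNA sequencing methods of the study name mouse IFNβ for both of its cell lines, whereas its cell culture methods, like the sample labels, give human IFNβ for HT1080. The labels do not say whether the libraries of a group came from separate cultures, so the p-values measure the spread between these libraries, which may be technical.

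Chemokines are small secreted proteins that guide leukocytes along gradients through receptors coupled to G proteins. CXCL9, CXCL10 and CXCL11 draw activated T cells and NK cells through CXCR3, and CCL5 draws T cells and monocytes through receptors that include CCR1 and CCR3. They are called interferon-type here, because interferon-activated STAT and IRF factors switch on their genes, although CCL5 and CXCL10 also answer to NF-kB. CXCL1, CXCL2, CXCL3 and CXCL8 draw neutrophils through CXCR2, and CCL2 draws monocytes through CCR2. These genes are classical targets of NF-kB and AP-1 in inflammation and in tumour cells, and are called NF-kB-type. CXCL16, which is made as a membrane-bound protein and binds CXCR6, was placed in neither class.

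In the annotation of GENCODE release 29 on GRCh38, 7 of the members lie on chromosome 4 and 3 on chromosome 17. CXCL8 (chr4:73740506-73743716, plus strand), CXCL1 (chr4:73869393-73871242, plus), CXCL3 (chr4:74036589-74038807, minus) and CXCL2 (chr4:74097035-74099293, minus) stand in one cluster. CXCL9 (chr4:76001275-76007488), CXCL10 (chr4:76021117-76023497) and CXCL11 (chr4:76033682-76041415), all on the minus strand, stand in another. CXCL16 (chr17:4733526-4739922, minus), CCL2 (chr17:34255218-34257203, plus) and CCL5 (chr17:35871491-35880793, minus) make up the rest. CXCL16 was the member whose exons overlapped those of another annotated gene, MED11 on the opposite strand, and the sources used here do not say whether the authors' counting used strand.

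The bases before the RefSeq transcription start were searched for the sites by which the classes are usually told apart. The RefSeq promoter table on GRCh38.p14 held 7 of the 10 members. The 250 bases before that start are printed for 6 of them, 5′ to 3′ on the strand of the gene. The RefSeq start is not always the start of the GENCODE span given above. The window of CXCL11 lies wholly inside its GENCODE span, and those of CXCL8, CXCL3 and CXCL2 lie partly inside theirs. For these genes the bases called upstream here are so by RefSeq only, and all positions are counted from the RefSeq start. CXCL10 (chr4:76023498-76023747) and CXCL11 (chr4:76036071-76036320) are shown as the members with the highest levels after IFNβ. CXCL9 (chr4:76007510-76007759) is shown as their neighbour that stayed at the limit of detection, CXCL8 (chr4:73740319-73740568) as the NF-kB-type member with the highest level, and CXCL3 (chr4:74038690-74038939) and CXCL1 (chr4:73869143-73869392) as a similar pair with unlike levels. Capitals mark every match, on either strand, to the core of the interferon-stimulated response element (GAAANNGAA, bound by interferon-activated STAT and IRF complexes and by IRFs), the NF-kB consensus, its exact form GGAATTTCC, and the interferon-gamma-activated site (TTCNNNGAA, bound by STAT dimers).
CXCL10: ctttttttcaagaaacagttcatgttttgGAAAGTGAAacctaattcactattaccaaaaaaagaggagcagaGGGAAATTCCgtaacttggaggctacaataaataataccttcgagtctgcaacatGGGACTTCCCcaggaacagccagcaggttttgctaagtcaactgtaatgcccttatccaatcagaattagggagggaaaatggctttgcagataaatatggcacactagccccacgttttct
CXCL11: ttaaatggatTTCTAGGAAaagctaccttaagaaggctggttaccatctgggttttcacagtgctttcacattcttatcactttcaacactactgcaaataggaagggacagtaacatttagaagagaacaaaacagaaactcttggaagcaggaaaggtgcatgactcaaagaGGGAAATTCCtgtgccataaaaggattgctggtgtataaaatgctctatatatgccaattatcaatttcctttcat
CXCL9: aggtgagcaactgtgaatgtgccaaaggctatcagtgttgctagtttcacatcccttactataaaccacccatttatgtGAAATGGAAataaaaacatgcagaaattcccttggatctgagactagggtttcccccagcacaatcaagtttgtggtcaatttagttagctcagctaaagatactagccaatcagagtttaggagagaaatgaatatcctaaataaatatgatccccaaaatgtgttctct
CXCL8: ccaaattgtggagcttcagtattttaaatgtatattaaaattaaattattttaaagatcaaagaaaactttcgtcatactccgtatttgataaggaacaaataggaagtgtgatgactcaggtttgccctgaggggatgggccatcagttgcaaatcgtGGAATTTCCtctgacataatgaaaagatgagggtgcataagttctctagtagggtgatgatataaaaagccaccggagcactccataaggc
CXCL3: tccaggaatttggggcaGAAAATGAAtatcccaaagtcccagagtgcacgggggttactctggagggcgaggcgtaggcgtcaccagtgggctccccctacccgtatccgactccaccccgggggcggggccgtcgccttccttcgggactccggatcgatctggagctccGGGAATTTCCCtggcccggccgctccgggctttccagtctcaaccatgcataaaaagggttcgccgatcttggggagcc
CXCL1: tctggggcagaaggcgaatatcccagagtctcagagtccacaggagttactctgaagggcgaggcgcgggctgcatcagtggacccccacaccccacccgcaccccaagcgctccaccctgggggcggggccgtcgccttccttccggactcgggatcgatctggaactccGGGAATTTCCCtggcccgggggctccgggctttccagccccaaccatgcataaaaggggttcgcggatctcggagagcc

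The response element core was found in 4 of the 7 promoters, those of CXCL9, CXCL10, CXCL2 and CXCL3, so the letters did not follow the classes. In CXCL10 it lay from -221 to -213 before the start and read GAAAGTGAA, and in CXCL9 it lay from -171 to -163. Of all 35116 promoters of the table, 6.88% held this core in the same window. The form GGAATTTCC was found in 6 of the 7, all but CXCL9, against 0.413% of all promoters, and it overlaps the NF-kB consensus, which was found in 5 of the 7 against 5.21%. In CXCL10 and CXCL11 it lay on the opposite strand, and CXCL10 held another NF-kB consensus match from -122 to -113. The interferon-gamma-activated site was found in CXCL11 alone among the 7, from -240 to -232, against 6.57% of all promoters. A match is a description of the letters and says nothing of binding, and sites further away were not searched.

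The upstream bases of CXCL1 and CXCL3 were identical at 210 of 258 aligned positions, or 81.4%. CXCL2 shared 70.1% with CXCL1 and 73.4% with CXCL3, and no other pair among the 7 went above 54.9%. Their longest transcripts, which differ in length, were identical over 80.4% of the end-to-end alignment for CXCL1 and CXCL2, 56.2% for CXCL2 and CXCL3 and 49.9% for CXCL1 and CXCL3. Among all their transcripts, CXCL2 and CXCL3 shared 79 stretches of 100 bases, which were 5.00% of the stretches of CXCL2 and 3.27% of those of CXCL3, and CXCL1 shared none with either.

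The values are FPKM, fragment numbers divided by the length of the gene and the size of the library, and can be compared between genes as levels per length. Whole fragments were recovered from them, with a library total between 22848104 and 32915500 fragments. The groups were tested with limma on the log2(FPKM + 0.1) scale over 20716 genes with a mean of at least 0.1 FPKM. A gene was called where its adjusted p lay under 0.05 and its log2 fold change was 1 or more in size. Fold changes on this scale understate those of low genes. Of 15 housekeeping genes none was listed at 0, and the lowest had 1.60 FPKM. Summed over 6 mesenchymal markers, the level ran from 826 to 877 FPKM in untreated and from 859 to 890 FPKM in treated libraries, although COL1A1 and NT5E were each under 1 FPKM throughout. This sum hides opposite changes. VIM (means of 399 untreated and 325 FPKM treated) and CD44 were lower after IFNβ. SPARC (267 and 334 FPKM), FN1, COL1A1 and NT5E were higher, and NT5E was called (log2 fold change 2.15). All 7 leukocyte markers were under 0.1 FPKM in every library, and the 3 endothelial ones summed to between 0.212 and 0.441 FPKM. The epithelial list summed to between 79.4 and 81.5 FPKM untreated and between 134 and 139 FPKM treated, all but a trace of it KRT8 and KRT18, with EPCAM and CDH1 under 0.1 FPKM. KRT8 was called higher (log2 fold change 1.10). The part of these marker differences in the chemokine results was not tested.

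IFNβ-treated cells had 5 of the 10 members called higher (CXCL10, CXCL11, CCL5, CXCL16 and CCL2) and none called lower by limma. At an unadjusted p under 0.05 the level of 2 members was lower, and limma-voom on the fragments called 1 of them, CXCL3. Over all genes tested, 4.22% were called, 3.49% higher and 0.739% lower. CXCL8 and CXCL3 had lower levels with an adjusted p under 0.05 but less than the fold required, as did 28.5% of all genes tested in either direction (32.7% with the called genes). The other 3 members, CXCL9, CXCL1 and CXCL2, did not reach a mean of 0.1 FPKM and were not tested. CXCL10, CXCL11 and CCL5 passed that filter through their treated libraries alone, so that their call was partly fixed by it.

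CXCL10, first known as interferon-gamma-induced protein, was listed at 0 in all 3 untreated libraries. The treated libraries held 21.3, 20.8 and 21.8 FPKM, from 771, 612 and 741 fragments. Every treated library thus stood above every untreated library, a lack of overlap in either direction that 46.6% of all genes tested showed, with a spread of 0.489 FPKM (SD, n = 3) around a mean of 21.3 FPKM. An FPKM of 0.0918, that of 3 fragments averaged over the untreated libraries, made the treated level at least 232-fold higher. The limma estimate was a log2 fold change of 7.74 ± 0.067 (SE, adjusted p = 9.00e-09), which depends on the pseudocount and is no bound.

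CXCL11, a ligand of the same receptor with high affinity, reached 22.1, 22.6 and 23.1 FPKM in the treated libraries. Its untreated libraries held 0, 0.0568 and 0 FPKM, which are 0, 3 and 0 fragments against 1211, 1006 and 1189 treated. The pair of genes therefore had near-equal levels per length after IFNβ. The ratio of fragments per library total was 1146, with a 95% exact counting interval of 392 to 5558. The log2 fold change was 7.61 ± 0.18 (SE, adjusted p = 1.03e-06). In each treated library CXCL11 lay above CXCL10, by 1.04, 1.08 and 1.06 times.

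CXCL9, the third ligand of CXCR3 and best known as a product of interferon gamma, was listed at 0 in the 3 untreated libraries and in treated libraries 1 and 2. Treated library 3 held 0.0125 FPKM, a single fragment. Its response was not detectable at this depth, where 3 fragments are worth 0.0391 FPKM, and no fold is given. The 3 neighbouring genes of this cluster thus had treated means of 0.0042, 21.3 and 22.6 FPKM. The gene of interferon gamma, IFNG, looked at after the values were known, was listed at 0 in all 6 libraries.

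CCL5, a chemoattractant of T cells that antiviral responses induce, had 0.0584, 0.135 and 0.0608 FPKM in untreated cells, from 2, 6 and 3 fragments. Treated libraries held 0.585, 0.614 and 1.02 FPKM, from 27, 23 and 44 fragments. The groups did not overlap, yet the highest treated library stayed far under CXCL10 and CXCL11. The ratio of fragments per library total was 8.62, with a 95% exact counting interval of 4.61 to 17.9. Its log2 fold change of 2.17 ± 0.28 (SE, adjusted p = 0.00175) became 0.67 with a pseudocount of 1, under the fold required.

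Among the NF-kB-type members CXCL8, also known as IL-8, was the highest before treatment, with 5.36, 6.68 and 5.55 FPKM. Treated libraries held 3.53, 3.63 and 3.74 FPKM. All treated libraries lay under all untreated ones, and the mean went from 5.86 ± 0.713 to 3.64 ± 0.109 FPKM (SD, n = 3 each). The log2 fold change was -0.67 ± 0.086 (SE, adjusted p = 0.00158), short of the required fold.

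CXCL3 had 1.66, 1.56 and 1.51 FPKM untreated. The treated libraries held 0.498, 1.05 and 0.951 FPKM, so that treated library 1 stood apart below its group, with 34 fragments against 58 and 61. The log2 fold change was -0.90 ± 0.25 (SE, adjusted p = 0.0342). Without treated library 1 it was -0.61, and without treated library 2 it was -1.08 and the gene was called lower. Leaving out untreated library 1, 2 or 3 or treated library 3 took the adjusted p to 0.0907, 0.0869, 0.0792 and 0.0515, and fits with no filter or no trend took it to 0.0597 and 0.0635. It stayed under 0.05 in 9 of 16 alternatives.

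CXCL1 and CXCL2, whose upstream bases were closest to those of CXCL3, were listed at 0 in all 6 libraries. They share the GGAATTTCC site and most of the upstream bases of CXCL3 printed above, but only CXCL3 had fragments, 297 untreated and 153 treated. No fold is given for them. Whether reads were assigned from one of these genes to another was not tested.

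CCL2, also known as MCP-1, moved opposite to the other expressed members of its class. Untreated libraries held 1.06, 1.45 and 1.04 FPKM and treated libraries 3.24, 4.10 and 4.42 FPKM. The groups were apart by more than their spread, with means of 1.18 ± 0.229 and 3.92 ± 0.609 FPKM (SD, n = 3 each). The log2 fold change was 1.65 ± 0.16 (SE, adjusted p = 5.31e-04), a ratio of means of 3.32.

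CXCL16 was at 0.329, 0.507 and 0.413 FPKM in untreated libraries. It reached 2.00, 2.11 and 2.01 FPKM in treated libraries, with no overlap and a ratio of means of 4.89. The log2 fold change was 2.06 ± 0.14 (SE, adjusted p = 1.23e-04). MED11, a Mediator subunit whose exons overlap it on the other strand, had 4.90, 5.12 and 5.15 FPKM untreated and 3.83, 4.26 and 3.82 FPKM treated, a log2 fold change of -0.34 ± 0.054 (SE, adjusted p = 0.00389) in the opposite direction.

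**Figure D1:**
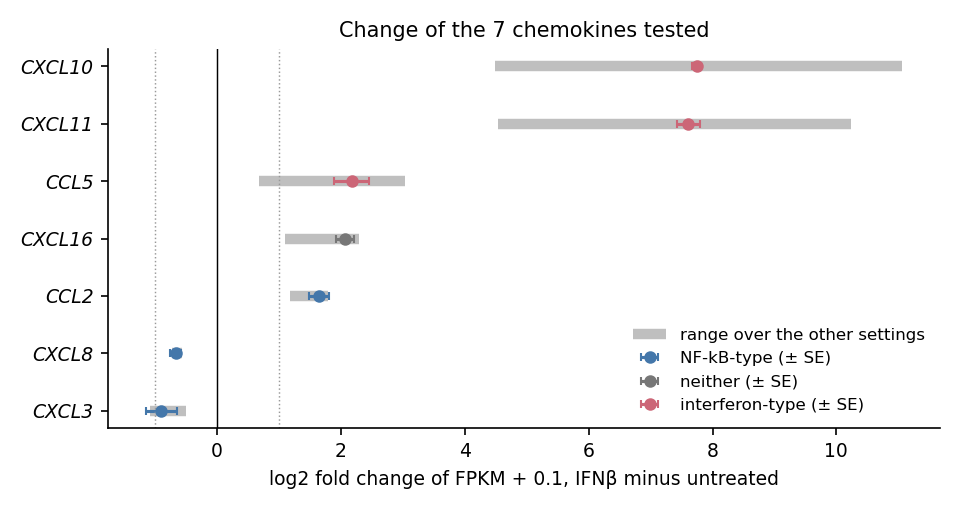
Log2 fold change of FPKM + 0.1 (IFNβ minus untreated, ± SE) for the 7 chemokines tested, coloured by class, with grey bars for the range over 16 other settings of the fit (15 for CCL5) and dotted lines at the fold required. CXCL10 and CXCL11 lie near 7.7, CCL2 lies with CCL5 and CXCL16 above 1.6, and CXCL8 and CXCL3 lie between -1 and 0, although the bar of CXCL3 reaches -1.08.

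The members' order of levels in FPKM, which depends on the gene lengths used, changed with treatment. Before IFNβ it ran CXCL8, CXCL3, CCL2, CXCL16 and CCL5, with no overlap between the library ranges of these neighbours. After IFNβ it ran CXCL11, CXCL10, CCL2, CXCL8, CXCL16, CXCL3 and CCL5. CXCL11 and CXCL10 did not overlap in range, whereas CCL2 and CXCL8 overlapped, and so did CXCL3 and CCL5. The ranges of CXCL8 and CXCL16 were apart.

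Summed by class, the interferon-type members made up 0.690%, 1.84% and 0.710% of the summed FPKM of the 10 chemokines in untreated libraries and 82.6%, 80.2% and 80.5% in treated libraries. The NF-kB-type sum was 8.08, 9.69 and 8.09 FPKM untreated and 7.26, 8.78 and 9.11 FPKM treated, and these groups overlapped. CCL2 offset CXCL8 and CXCL3 in that sum, which therefore hides opposite changes. The sums and shares also depend on the gene lengths used. Summed over all 10 members, the level was 9.14 ± 1.08 FPKM untreated and 55.1 ± 1.93 FPKM treated (SD, n = 3 each).

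**Figure D2:**
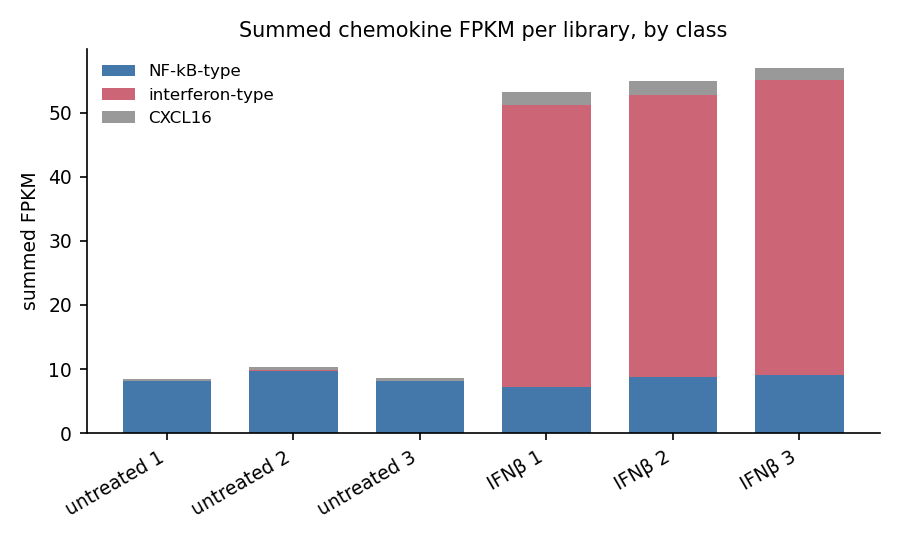
Summed FPKM of the chemokines in each library, stacked by class, with CXCL16 apart. The NF-kB-type part stays between 7.26 and 9.69 FPKM in all 6 libraries, while the interferon-type part is between 44.0 and 46.0 FPKM in the treated libraries and under 0.2 FPKM in the untreated ones.

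The median log2 fold change was 7.61 over the 3 interferon-type members tested and -0.67 over the 3 NF-kB-type members tested, beside 0.00017 over all genes tested. The interferon-type median is the value of CXCL11 and moved with the settings, to 4.48 with a pseudocount of 1 and 10.23 with one of 0.01. CXCL9, CXCL1 and CXCL2 are in neither median, and since the filter let interferon-type members in through their treated level, the medians describe these genes only. In bulk RNA, fewer cells making a transcript and less of it per cell cannot be told apart.

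Of 23 chemokine receptors, 7 passed the filter, and 4 were called higher and none lower by limma. Over all genes tested, 3.49% were called higher and 0.739% lower. At an unadjusted p under 0.05 the level of 6 receptors was higher and of 0 lower, and limma-voom called 0 lower. CCR3 and CCR4 passed the filter through their treated libraries alone, so that their calls and p-values were partly fixed by it. CCR1, a receptor for CCL5, had 0.380, 0.611 and 0.379 FPKM untreated and 3.33, 3.95 and 4.08 FPKM treated, a log2 fold change of 2.82 ± 0.18 (SE, adjusted p = 8.62e-05). CCR3, another receptor for CCL5 and the main receptor of eosinophils for eotaxins, had 0.0431, 0.116 and 0.0747 FPKM untreated and 0.469, 0.584 and 0.483 FPKM treated. Its log2 fold change was 1.80 ± 0.24 (SE, adjusted p = 0.00178). The span of CCR1 lies inside that of CCR3 on the other strand, without exon overlap in release 29.

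CCR4, a receptor of helper and regulatory T cells, rested on 2, 1 and 0 untreated fragments against 27, 13 and 16 treated. The ratio of fragments per library total was 18.8, with a 95% exact counting interval of 6.12 to 94.1, and the limma log2 fold change was 1.46 ± 0.30 (SE, adjusted p = 0.0112). CCRL2, which binds chemerin and does not signal like a chemokine receptor, had 1.42, 1.41 and 1.43 FPKM untreated and 3.08, 3.06 and 3.01 FPKM treated. Its log2 fold change was 1.05 ± 0.051 (SE, adjusted p = 2.80e-05), just over the fold required. These receptors are known from leukocytes, whose 7 markers were all under 0.1 FPKM here. With a pseudocount of 1 the log2 fold changes of CCR3, CCR4 and CCRL2 were 0.49, 0.26 and 0.74, and CCR1 was the one still called.

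The receptor of CXCL16, CXCR6, had 0.638, 0.545 and 0.797 FPKM untreated and 0.998, 0.976 and 1.06 FPKM treated, a log2 fold change of 0.56 ± 0.15 (SE, adjusted p = 0.0272) under the fold required. CCR10 (0.09 ± 0.17, adjusted p = 0.745 from limma) and ACKR4, a scavenger of CCL19 and CCL21 (0.55 ± 0.20, adjusted p = 0.0815 from limma), did not pass the test. CXCR3, through which CXCL10 and CXCL11 act, had 0, 0 and 2 fragments untreated and 1, 4 and 1 treated, a ratio of 3.03 with a 95% exact counting interval of 0.541 to 30.7. Looked up as the receptors of the other members, CXCR2 had at most 6 fragments in a library, CCR2 at most 1, and CXCR1 was listed at 0. Of the receptors known for the members, CCR1, CCR3 and CXCR6 thus passed the filter, and those of CXCL10, CXCL8 and CCL2 were at or near 0 in both groups.

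**Figure D3:**
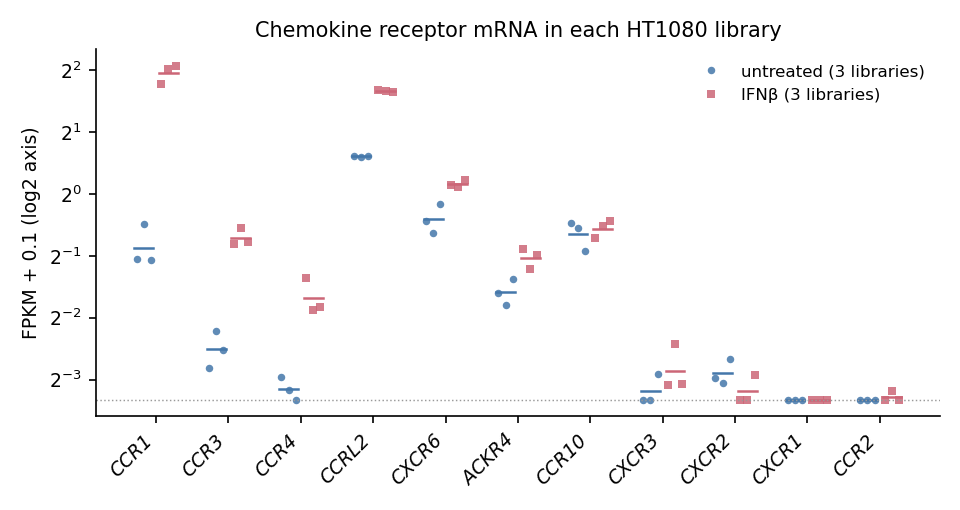
Level of 11 chemokine receptors in each library, as FPKM + 0.1 on a log2 axis, with 3 untreated (circles) and 3 IFNβ-treated (squares) libraries, lines for the means of the log2 values and a dotted line at 0 FPKM. CCR1, CCR3, CCR4 and CCRL2 stand apart between the groups and were called, and CXCR3, CXCR2, CXCR1 and CCR2 lie close to 0 FPKM.

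Of 36 further chemokine ligands, 19 were listed at 0 in all libraries and 2 passed the filter, with none called by limma, neither at an unadjusted p under 0.05, and 1 called by limma-voom, CCL3. CCL20, which draws cells through CCR6, had 0.577, 0.867 and 0.476 FPKM untreated and 0.428, 0.603 and 0.803 FPKM treated (log2 fold change -0.06 ± 0.27, adjusted p = 0.906). CCL3, a ligand of CCR1, had 0.0293, 0.361 and 0.0203 FPKM untreated and 0.304, 0.348 and 0.324 FPKM treated, so that untreated library 2, with 16 fragments against 1 and 1, lay with the treated group. With it the log2 fold change was 1.14 ± 0.54 (SE, adjusted p = 0.166), and without it 1.77 ± 0.26 (SE, adjusted p = 0.00661). That library was also the highest of its group for CXCL11, CCL5, CXCL8, CCL2 and CXCL16, but not for CXCL3. The cause was not tested. CCL7, a close relative of CCL2, had no fragment without IFNβ and 1, 3 and 0 with it. CCL26 had at most 2 fragments in any library.

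Of 34 regulators, processing enzymes and inducing cytokines, 30 were tested, 5 were called higher and none lower by limma, with a median log2 fold change of 0.08. At an unadjusted p under 0.05 the level of 7 was lower, and limma-voom called none of them. Over all genes tested, limma called 3.49% higher and 0.739% lower. STAT2 had means of 3.88 and 40.6 FPKM and IRF9, which contacts DNA in the interferon-activated complex, 0.136 and 1.53 FPKM. Their log2 fold changes were 3.35 ± 0.029 (SE, adjusted p = 8.50e-09) and 2.79 ± 0.15 (SE, adjusted p = 4.91e-05). IRF1, which binds the same response element, had 1.84 and 4.37 FPKM, a log2 fold change of 1.21 ± 0.094 (SE, adjusted p = 1.97e-04). IRF7 was not called (0.02 ± 0.20, adjusted p = 0.969 from limma).

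None of the 10 genes of the NF-kB side, its subunits and its inhibitors, was called by limma or limma-voom (6 had an unadjusted p under 0.05). Over all genes tested, limma called 4.22%, so that no call among 10 genes says little. Their log2 fold changes ran from -0.29 (NFKBIB) to 0.51 (NFKB2). At an adjusted p under 0.05 by limma 3 were higher and 2 lower, a threshold that 32.7% of all genes tested reached. JUN, an AP-1 subunit that acts on CXCL8, had 72.5, 72.6 and 73.1 FPKM untreated and 53.9, 55.1 and 52.3 FPKM treated, a log2 fold change of -0.44 ± 0.023 (SE, adjusted p = 3.78e-05). CEBPB, a further factor of the CXCL8 promoter, had means of 56.9 and 47.1 FPKM (-0.27 ± 0.031, adjusted p = 0.00103). Both had lower levels, as did CXCL8, and both stayed under the fold required, like 28.5% of all genes tested in either direction. FOS, the other AP-1 gene listed, was at 0.07 ± 0.23 (log2 fold change, adjusted p = 0.870 by limma). Whether any of these bears on CXCL8 was not tested. ZFP36L1, which speeds the decay of mRNAs with AU-rich elements, was at 0.12 ± 0.020 (log2 fold change, adjusted p = 0.00446) and MMP2, which can trim chemokines, at -0.05 ± 0.051 (adjusted p = 0.545), both by limma.

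IL6, a cytokine that NF-kB also switches on, was the member called among the inducing cytokines. It had 0.253, 0.390 and 0.176 FPKM untreated and 1.04, 0.769 and 1.03 FPKM treated, a log2 fold change of 1.51 ± 0.25 (SE, adjusted p = 0.00444). With a pseudocount of 1 the log2 fold changes of IL6 and IRF1 were 0.61 and 0.92, under the fold required. IL6 thus shared its direction with CCL2 and not with CXCL8 or CXCL3. IL1B, of the same list and at a higher level, went the other way, with means of 11.6 FPKM untreated and 9.20 FPKM treated. Its log2 fold change was -0.33 ± 0.070 (SE, adjusted p = 0.0131 by limma), under the fold required. IL1A was at 0.15 ± 0.10 (adjusted p = 0.321 by limma).

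Of the 40 other protein-coding genes within 200000 bases of a member, 21 were tested, with a median log2 fold change of -0.03. By limma 5 were higher and 6 lower at an adjusted p under 0.05, which 32.7% of all genes tested reached. Of the 21, 1 was called, beside 4.22% of all genes tested. It was SCARB2, a lysosomal membrane protein gene 117318 bases from CXCL11, with means of 13.4 and 27.4 FPKM and a log2 fold change of 1.02 ± 0.023 (SE, adjusted p = 7.31e-07), which was 0.98 and no longer called with a pseudocount of 1. RASL10B, near CCL5, had a log2 fold change of -0.97 ± 0.14 (SE, adjusted p = 0.00291 by limma), short of the fold required. Quantile scaling and limma-voom called it lower. ART3, whose span on the opposite strand contains CXCL10 and CXCL11, had 0, 0 and 0 fragments untreated and 4, 4 and 13 treated, under the filter. The tested genes around the CXCL10 and CXCL11 pair thus had far smaller log2 fold changes than the pair itself. For ART3 only a lower bound is given, at least 2.29-fold higher after IFNβ.

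**Figure D4:**
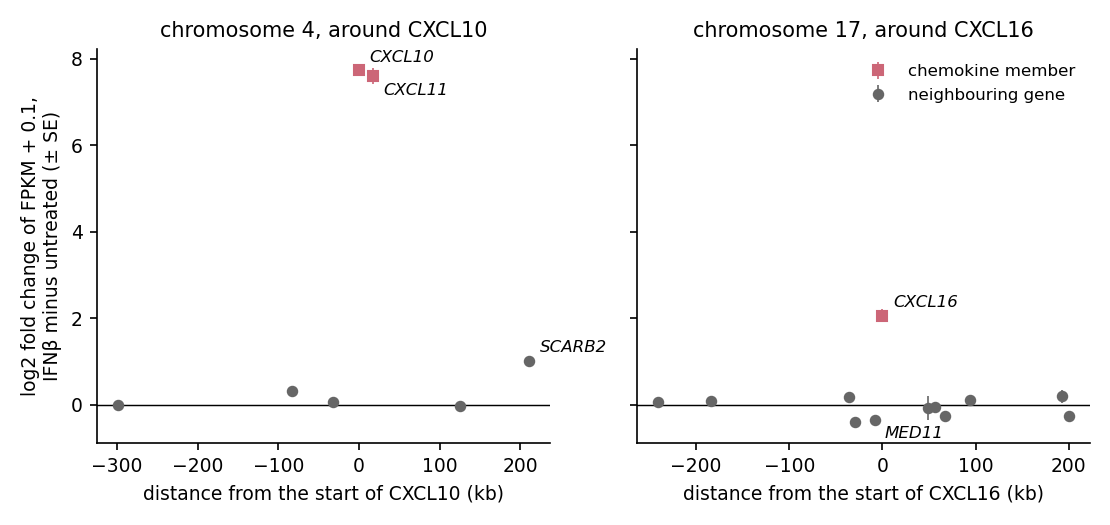
Log2 fold change of FPKM + 0.1 (IFNβ minus untreated, ± SE) of tested genes against the distance of their start from that of CXCL10 on chromosome 4 (left) and CXCL16 on chromosome 17 (right), in kb, with members as squares and other genes as circles. CXCL10 and CXCL11 stand above 7, SCARB2 lies at 1.02, and MED11 lies at -0.34 beside CXCL16 at 2.06.

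The genes whose log2(FPKM + 0.1) followed that of CXCL10 most closely over the 6 libraries were HSH2D (r = 0.99999), IFI44L (r = 0.99999) and PLSCR1 (r = 0.99998). Such values are set by the difference between the groups, and 625 genes had an r above 0.99. For CXCL8 they were LYSET (r = 0.999), HOXD8 (r = 0.997) and ABHD14B (r = 0.996), with 47 genes above 0.99. LYSET, HOXD8 and ABHD14B had log2 fold changes of -0.35, -0.82 and -0.31. All points share the same 6 libraries.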

How the data were processed

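mRNA-enriched libraries of 3 untreated and 3 IFNβ-treated HT1080 samples were analysed. The submitters' processing notes name fastp, HISAT2, StringTie and GRCh38, and the study used DESeq2 for its own comparison. The authors deposited FPKM per Ensembl gene and library, neither pooled nor filtered, and the annotation and strand setting are not given in the sources used here. The members and lists were chosen with earlier results of these data known.

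Whole fragments were recovered for 100% of the 35303 genes above 0 (tolerance 0.001 fragments), adding up to about 99.7% of each library total. For 16427 of these genes the release 29 length gave whole numbers. For the others the smallest matching whole numbers were taken, so that the 100% was nearly assured and does not verify each count. FPKM were compared with limma 3.58.1 (R 4.3.3) with an intensity trend, no covariate and Benjamini-Hochberg adjustment over 20716 genes, of which 875 were called. The procedure was run on simulated data that left out genes with few untreated fragments. It therefore says nothing of genes such as CXCL10, CXCL11 and CCL5. Intervals and floors (3 fragments) cover counting error only. Alternatives were other pseudocounts, filters, scalings and thresholds, no trend, a replicate block, limma-voom on the fragments (1104 calls) and each library left out. With 3 against 3 libraries the smallest exact permutation p is 0.1. Named genes were all members, the called genes of each list, up to 4 others of highest mean FPKM, and neighbours called or overlapping a member. GENCODE release 29 gave locations, and 4436 IDs of the table are not in it. Some genes of the lists are not reported here.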

Additional observations from a re-analysis of the deposited data

How the results depend on the processing

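Of the 10 members, between 4 and 7 were called under every alternative, and CXCL10, CXCL11, CCL2 and CXCL16 were called in all 16 other fits. No member's direction reversed. CXCL3 was called lower by quantile scaling, without treated library 2 (log2 fold change -1.08) and by limma-voom (-1.01). With a pseudocount of 1, calls numbered 304 over all genes, 1 among receptors, 3 among regulators and 0 among neighbours by limma (12 of them with an unadjusted p under 0.05), and the class medians were 4.48 (interferon-type) and -0.50 (NF-kB-type). With a pseudocount of 0.01 the interferon-type median was 10.23 and 2 neighbours were called, as with quantile scaling and limma-voom. A mean FPKM of at least 1 left 425 calls over all genes, 2 receptors, 3 regulators and a median of 7.68. No filter gave 4.89, because CXCL9 then entered, and limma-voom gave 10.21 and called 1 other ligand, CCL3. Without a fold threshold 6778 genes, 16 regulators and 11 neighbours passed. Leaving out each library gave 0 to 1 other ligands, interferon-type medians of 7.50 to 7.74 and NF-kB-type medians of -0.73 to -0.57. Without untreated library 2 the log2 fold changes were 7.83 for CXCL11, 1.79 for CCL2, -0.57 for CXCL8 and -0.91 for CXCL3. Except where fewer genes were tested or CXCL9 entered, the cause was not tested.

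Deviations from the group means had correlations of 0.0532, -0.0183 and 0.122 for the same replicate number, and -0.151 to 0.0989 for unlike numbers. With 3 libraries in a group such values cannot decide whether the samples were paired. The replicate block gave 829 calls, with 5 members among them and an adjusted p of 0.0573 for CXCL3. Under 0.1 FPKM, levels rested on few fragments.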
